A study of Mus musculus with 6 samples.

Results

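The unfolded protein and integrated stress response module held 37 mouse genes chosen by name for their known roles, and each was looked up by its symbol in the deposited count table. All 37 were among the 17830 genes of that table. They fall into 14 chaperones and folding enzymes of the endoplasmic reticulum (ER), 7 genes of ER degradation, 9 targets of the transcription factor ATF4, and 7 sensors and transcription factors. Of the 37, 36 had enough counts to be tested, among 13484 genes tested in all. The exception was Derl3, which lay between 0.168 and 0.39 CPM (counts scaled to library size).

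Bulk RNA sequencing covered 6 libraries of cells labelled as skull osteoblasts, 3 control and 3 APPswe. Control mice carried mOCN-Cre and Ai9. APPswe mice carried the same alleles and, in addition, LSL-APPswe. The Cre was knocked in at the end of the osteocalcin gene Bglap behind a P2A peptide, Ai9 is a reporter of Cre activity that yields red fluorescent tdTomato, and LSL-APPswe is a human APP695 transgene with the Swedish mutations under the CAG promoter that is held off by a stop cassette until Cre removes it. The mice were stated to be males on a C57BL/6J background aged 6 months. Cells that grew out of calvarial bone chips in culture were sorted for tdTomato before RNA was extracted. By design, the osteocalcin promoter switches on the transgene through Cre in APPswe mice. The comparison asks how the module stood in the sorted cells of each group, which also held markers of other cell types, given below. The labels do not say whether the replicates came from separate animals or cultures, so p-values measure only the spread between these samples, which may be technical. Total counts were 17649704, 18134411 and 18398392 in control 1, 2 and 3, and 17263757, 17555489 and 17483141 in APPswe 1, 2 and 3. A floor of 3 counts corresponded to between 0.167 and 0.173 CPM and covers counting error only.

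When unfolded protein builds up in the ER, the membrane sensors IRE1 (Ern1), PERK (Eif2ak3) and ATF6 start the unfolded protein response. IRE1 splices the Xbp1 message and ATF6 is cut to release a transcription factor, and both arms raise chaperones and degradation factors. PERK phosphorylates eIF2alpha (Eif2s1), the step that the integrated stress response shares with other kinases, which slows translation in general while favouring that of ATF4. Osteoblasts, which secrete large amounts of collagen, rely on this machinery. Read counts per gene measure neither splicing of Xbp1 nor phosphorylation nor protein.

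Promoter sequence was searched for the elements through which these factors are known to act. The ER stress response element was searched as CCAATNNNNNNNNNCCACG, a shorter form of it (ERSE-II) as ATTGGNCCACG, and the element bound by ATF4 with its partners (CARE) as TGATGNAA, on both strands, in RefSeq windows of GRCm38.p6 that run from 250 bases before to 50 bases after each gene's start. The ER stress response element and ERSE-II share the letters CCACG and, read on the other strand, ATTGG. A window was listed for 32 of the 37 members, and none for Hyou1, Creb3l1, Derl1, Manf and Atf6. The first element was found in 0.119% of all 32851 windows and in those of 9 members, namely Calr, Canx, Creld2, Derl3, Dnajc3, Hsp90b1, Hspa5, Pdia6 and Syvn1. ERSE-II was found in 0.0365% of all windows and in those of 2 members, Dnajb11 and Herpud1. CARE was found in 3.97% of all windows and in those of 5 members, Asns, Atf3, Chac1, Herpud1 and Trib3. In Dnajb11 the match, ATTGGCCCACG, began 7 bases after the start, and in Trib3 the match, TTACATCA on the reverse strand, began 14 bases after it. A match is a description of the letters only.

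The 250 bases before the start are shown for 4 members, 5′ to 3′ on the strand of the gene, with the matches in capitals. Hspa5 is shown as the central chaperone, Calr as the most abundant member, Herpud1 as the member with both kinds of element, and Asns as an ATF4 target whose call turned on a single library. Hspa5 lies at chr2:34771840-34772089 on the plus strand and Calr at chr8:84846932-84847181 on the minus strand. Herpud1 lies at chr8:94386179-94386428 on the plus strand and Asns at chr6:7693210-7693459 on the minus strand. All 4 stretches end at the base before the annotated gene. The matches begin 65 bases before the start in Hspa5, 162 in Calr and 23 in Asns, and in Herpud1 ERSE-II begins 52 and CARE 112 bases before it.
Hspa5: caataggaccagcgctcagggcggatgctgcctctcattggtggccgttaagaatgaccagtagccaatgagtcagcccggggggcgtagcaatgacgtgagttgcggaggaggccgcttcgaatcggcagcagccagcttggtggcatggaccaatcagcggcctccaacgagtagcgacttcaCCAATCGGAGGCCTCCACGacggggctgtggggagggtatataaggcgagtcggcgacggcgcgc
Calr: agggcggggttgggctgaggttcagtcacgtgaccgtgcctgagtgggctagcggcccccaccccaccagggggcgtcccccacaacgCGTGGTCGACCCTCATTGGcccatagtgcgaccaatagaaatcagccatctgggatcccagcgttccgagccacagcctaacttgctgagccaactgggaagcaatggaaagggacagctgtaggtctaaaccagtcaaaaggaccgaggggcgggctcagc
Herpud1: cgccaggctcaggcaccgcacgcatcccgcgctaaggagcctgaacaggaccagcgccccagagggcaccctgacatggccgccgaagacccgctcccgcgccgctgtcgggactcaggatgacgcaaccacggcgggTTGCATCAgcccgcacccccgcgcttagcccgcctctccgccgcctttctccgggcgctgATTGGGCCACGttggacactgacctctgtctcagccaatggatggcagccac
Asns: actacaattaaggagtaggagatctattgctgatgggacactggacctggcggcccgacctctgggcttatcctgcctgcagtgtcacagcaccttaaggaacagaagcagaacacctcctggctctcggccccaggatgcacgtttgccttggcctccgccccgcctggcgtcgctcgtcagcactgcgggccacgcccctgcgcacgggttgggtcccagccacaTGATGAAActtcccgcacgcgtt

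Control 2 stood apart from the other libraries before any member was considered. It held 1 count of Bglap, the gene that carries the Cre, against 9.18 and 11.5 CPM in control 1 and 3 and 6.45, 7.13 and 8.94 CPM in APPswe 1, 2 and 3 (Bglap shares much of its sequence with Bglap2, so its level is uncertain). Counts from the Y chromosome (Uty, Kdm5d, Eif2s3y and Ddx3y) came to 2 in control 2, whereas the same genes summed to 197 and 180 CPM in control 1 and 3 and to 147, 128 and 127 CPM in APPswe 1, 2 and 3. The library labelled control 2 thus goes against the stated sex. Alpl, the alkaline phosphatase of osteoblasts, was at 1.97 CPM in control 2, at 43.4 and 43.7 CPM in control 1 and 3, and between 72.2 and 76.3 CPM in APPswe. Over the 36 tested members, the median absolute log2 difference was 0.0748 between control 1 and 3, but 0.264 between control 1 and 2 and 0.214 between control 2 and 3. Between pairs of APPswe libraries it was 0.0925, 0.109 and 0.0404. Over the whole table, no pair of libraries was as close as sampling noise alone would leave it. Results are therefore given with and without control 2, a use of that left-out fit that was chosen after the data were seen.

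Control 2 was the highest of the 6 libraries for 20 of the 36 members (55.6%), against 27.9% of all genes tested, and the lowest for 7 members (19.4%), against 29% of all genes tested. The 20 included Hspa5, Canx, Sel1l, Edem1, Asns, Xpot, Sesn2, Ern1 and Atf6. The 7 were Manf, Derl2, Atf3, Ppp1r15a, Xbp1, Atf4 and Creb3l1. The heat map of deviations shows this library in deeper colours than its neighbours in every class.

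**Figure D1:**
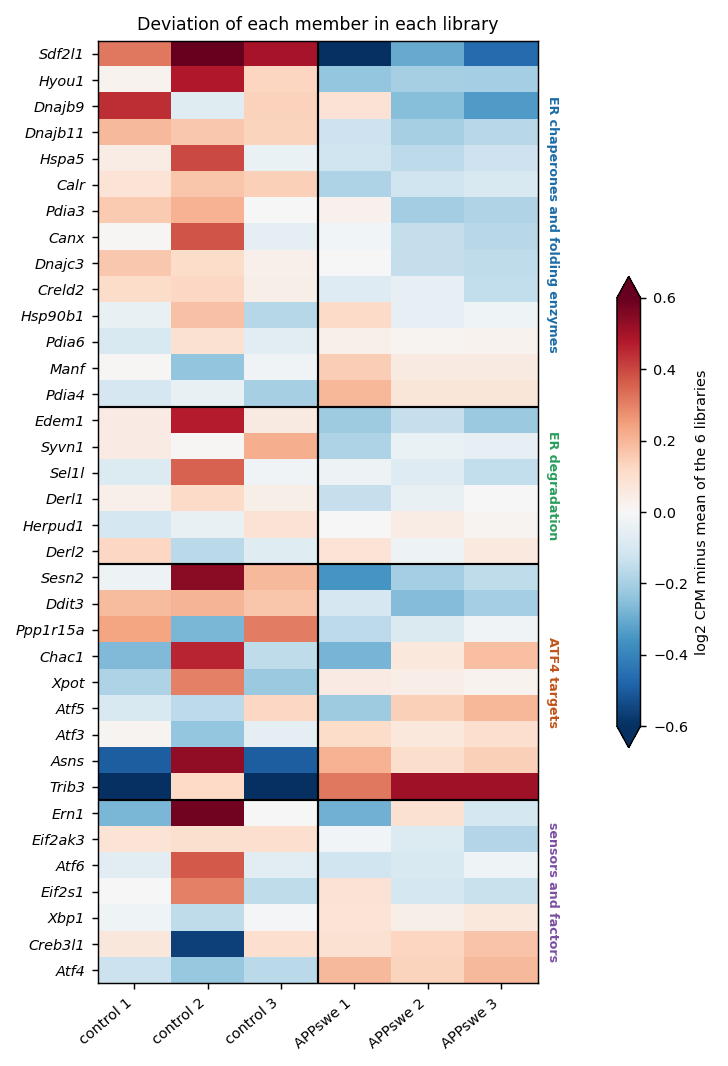
Log2 CPM of each of the 36 tested members in each library, minus the mean of the 6 libraries, by class; values beyond the ends of the colour scale are drawn in the end colours. Control 2 is the highest library for 20 members, Sdf2l1 is higher in every control than in every APPswe library, and Trib3 is lowest in control 1 and 3.

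Markers of other cell types moved between the groups. Their counts stand beside 10.5% higher and 12% lower over all genes tested. Of 13 macrophage markers, 8 fell and 1 rose in APPswe. Their summed level was 23489, 18244 and 25036 CPM in control 1, 2 and 3 and 12647, 13514 and 13613 CPM in APPswe 1, 2 and 3, with Lyz2 the most abundant in every library. Of 8 osteoclast markers, 7 were tested and 5 rose, and the sum was 290, 158 and 274 CPM in control and 731, 731 and 720 CPM in APPswe, led by Ctsk. The groups did not overlap in either sum. All 9 tested of 10 skeletal muscle markers rose, from sums of 2.83, 11.2 and 3.22 CPM in control to 175, 168 and 174 CPM in APPswe. Of 12 osteoblast markers, 2 rose (Sp7 and Runx2) and 1 fell (Spp1), with sums of 17995, 17558 and 18844 CPM in control and 11648, 12231 and 12287 CPM in APPswe. Muscle markers were low in every control, and Spp1 and the collagens Col1a1 and Col1a2 made up most of the osteoblast sum. That sum hides how far control 2 stood apart. The median osteoblast marker was at 1.91 CPM in control 2 and at 20.9 and 22 CPM in control 1 and 3. In APPswe 1, 2 and 3 it was at 29.8, 32 and 34 CPM. Ibsp had 3 counts in control 2 against 1468 and 1371 in control 1 and 3. The macrophage sum was above the osteoblast sum in every library. Among 8 fibroblast markers 3 rose and 0 fell with all libraries, led by Col3a1, with sums of 4057, 2105 and 3983 CPM in control and 7374, 7268 and 7228 CPM in APPswe. Of 6 endothelial markers 2 fell, Kdr and Vwf, and the sums were 228, 81.7 and 242 CPM in control and 23.9, 23.9 and 25.6 CPM in APPswe. Of 7 plasma cell markers, tracked because plasma cells are rich in ER, only Sdc1 was tested and it rose, while Jchain, Mzb1, Tnfrsf17, Cd79a, Cd79b and Pou2af1 stayed at or under 0.841 CPM in all 6 libraries. Without control 2 these counts moved, and they then stand beside 23.3% higher and 25% lower over all genes tested. All 6 endothelial markers then fell, and of the osteoblast markers 4 rose (Sp7, Runx2, Alpl and Pth1r) and 6 fell (Spp1, Bglap, Bglap2, Ibsp, Dmp1 and Phex). Of the fibroblast markers 3 rose and 3 fell (Dcn, Lum and Fap), of the macrophage markers 2 rose and 10 fell, and all 7 tested osteoclast markers rose. Cd79b, with 2, 6 and 1 counts in control and 15, 8 and 14 counts in APPswe, was then tested and rose (edgeR Benjamini-Hochberg adjusted p = 0.00272). The part of these cell types in the results for the module was not tested, and in bulk RNA fewer cells of a type and less RNA per cell cannot be told apart.

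By edgeR's quasi-likelihood test, with the Benjamini-Hochberg adjustment made over all 13484 genes, 6 of the 36 tested members passed an adjusted p of 0.05. Atf4 was the 1 member higher in APPswe, where 10.5% of all genes tested were higher, and 5 members were lower, where 12% of all genes tested were lower. The 5 were Sdf2l1, Dnajb11, Calr and Hyou1 among the chaperones and Ddit3 among the ATF4 targets. Where the log2 fold change also had to reach 1 or -1, edgeR called 0 members higher and 0 lower, against 3.74% and 3.6% of all genes tested. With that fold limit, DESeq2 and limma also called 0 in either direction. At an adjusted p of 0.05 alone, DESeq2 passed 2 members higher and 7 lower, and each limma fit 3 higher and 3 lower. Over all genes and both directions, 3507 of 17368 genes fitted passed by DESeq2, and 2859 and 2826 of 12819 by limma. At an unadjusted p under 0.05 by edgeR there were 14 of 36 members, beside 5017 of all 13484 genes tested. The APPswe libraries lay wholly above the controls for 6 members and wholly below for 13, where 22.9% and 22.1% of all genes tested did so, and the groups overlapped for 17. The median log2 fold change of the members was -0.18, against -0.0033 over all genes tested, and the median absolute log2 fold change was 0.20, against 0.26.

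Without control 2, edgeR passed 15 members. They were 5 higher, where 23.3% of all genes tested were higher, and 10 lower, where 25% of all genes tested were lower. The 6 members that passed with all libraries were among them. With the fold limit, 1 member was called higher, Trib3, against 4.87% of all genes tested, and 0 lower, against 6.58%. The median log2 fold change of the members was then -0.02. The plot of log2 fold changes shows both sets of values side by side.

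**Figure D2:**
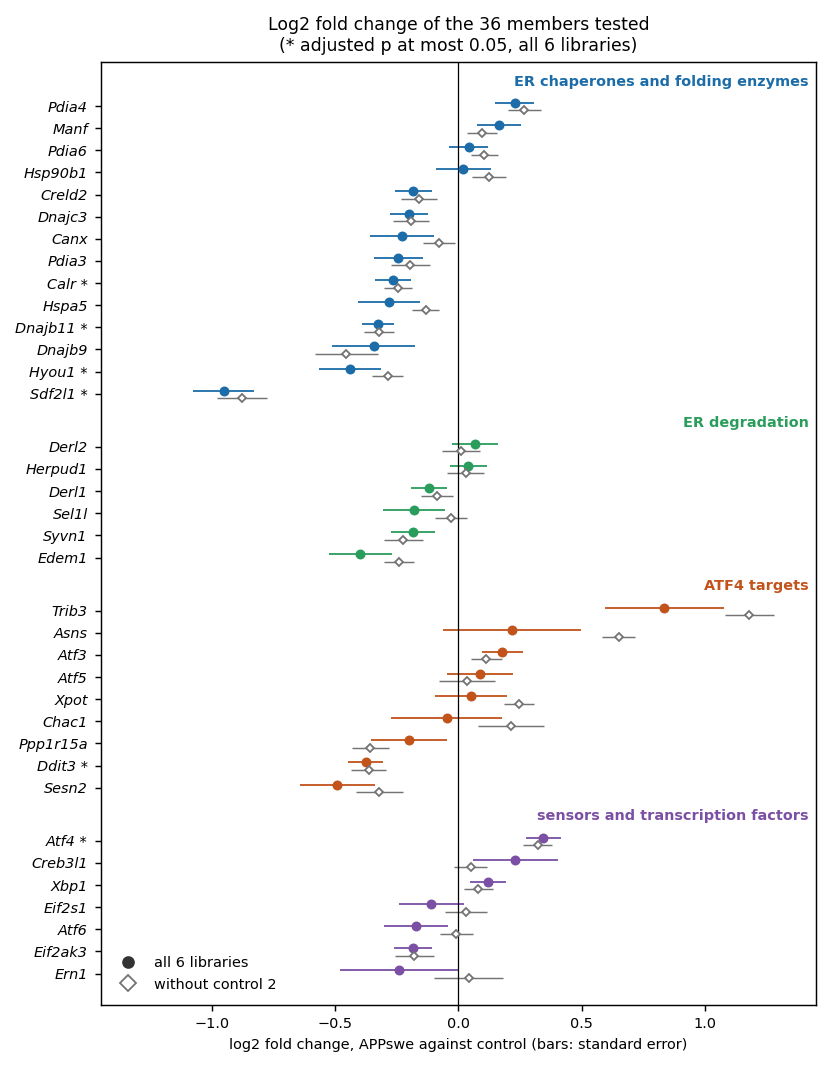
Log2 fold change of APPswe against control for the 36 tested members by class, with all 6 libraries (filled circles) and without control 2 (open diamonds); bars are standard errors and asterisks mark the 6 members with an adjusted p of at most 0.05 in all 6 libraries. Sdf2l1 has the lowest value, -0.95, and Trib3 the highest, 0.83 with all libraries and 1.18 without control 2.

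Chaperones and folding enzymes were the most abundant class per length. By deposited FPKM, which counts fragments per kilobase and scales them to library size, the median of the mean levels over the tested members of the class was 131, against 32.7 for ER degradation (which leaves out Derl3), 24.2 for ATF4 targets and 35 for sensors and transcription factors. Calr led with 873 FPKM, followed by Hsp90b1 at 460, Hspa5 at 456 and Pdia3 at 395. Hspa5 was above Hsp90b1 in all 3 controls and below it in all 3 APPswe libraries. The least abundant of the class was Dnajc3, at 24.3 FPKM.

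**Figure D3:**
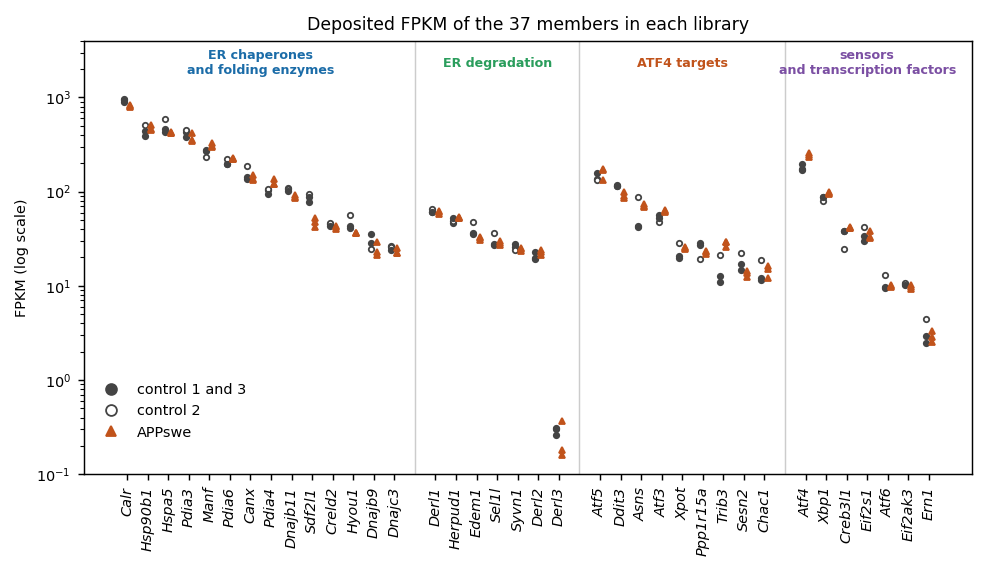
Deposited FPKM of all 37 members in each library on a log scale, by class and in order of mean level; control libraries are circles (control 2 open) and APPswe libraries triangles. Calr is the most abundant at a mean of 873 FPKM and Derl3 the least at 0.263 FPKM.

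Of the 14 members of the chaperone class, 4 fell, 0 rose and 10 did not pass, and 10 had a negative and 4 a positive log2 fold change. Over all genes tested, 12% fell and 10.5% rose, and 6790 of 13484 had a negative value. The class median was -0.24, and -0.18 without control 2, and it was negative under all 16 alternative settings. By library, the median deviation of the class from the mean of the 6 libraries was 0.06, 0.17 and 0.01 on the log2 scale in control 1, 2 and 3 and -0.01, -0.14 and -0.15 in APPswe 1, 2 and 3. APPswe 1 thus lay near control 3, and APPswe 2 and 3 lay lowest.

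Sdf2l1 (gene 64136), an ER protein that binds the cochaperone ERdj3 and assists BiP, showed the largest fall of the module. It was at 67.5, 82.9 and 76.5 CPM in control 1, 2 and 3 and at 34.2, 43.9 and 39.3 CPM in APPswe 1, 2 and 3. Every APPswe library lay below every control, and the highest APPswe library stood well below the lowest control. On the log2 scale the difference of APPswe from control was -0.95 (edgeR Benjamini-Hochberg adjusted p = 0.00355, standard error 0.12), a level 0.517 times that of control. Without control 2 it was -0.88 (edgeR Benjamini-Hochberg adjusted p = 4.93e-05, standard error 0.10). Sdf2l1 alone among the members passed under all 16 alternatives, with Benjamini-Hochberg adjusted p-values of edgeR, DESeq2 and limma from 4.47e-15 to 0.0291.

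Dnajb11 (gene 67838) encodes ERdj3, the J-domain cochaperone of BiP with which Sdf2l1 forms a complex. It was at 193, 189 and 185 CPM in control 1, 2 and 3 and at 155, 147 and 150 CPM in APPswe 1, 2 and 3. The controls were tightly grouped, control 2 among them, and all lay above the APPswe libraries. APPswe differed from control by a log2 fold change of -0.33 (edgeR Benjamini-Hochberg adjusted p = 0.0162, standard error 0.07), and -0.32 without control 2. The call was lost when control 1, APPswe 2 or APPswe 3 was left out, at edgeR Benjamini-Hochberg adjusted p-values of 0.0538, 0.101 and 0.0904, and Dnajb11 passed in 13 of 16 alternatives. Its window carries ERSE-II, as given above.

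Hyou1 (gene 12282) encodes GRP170, the exchange factor that lets BiP release its substrates. It was at 177, 243 and 190 CPM in control 1, 2 and 3 and at 148, 151 and 151 CPM in APPswe 1, 2 and 3. Control 2 was far above the other controls, and the APPswe libraries were nearly equal and lowest. In log2 terms the fold change was -0.44 (edgeR Benjamini-Hochberg adjusted p = 0.0483, standard error 0.13). Without control 2 it was smaller, -0.29 (standard error 0.06), and better separated from the spread (edgeR Benjamini-Hochberg adjusted p = 0.0033, within a range of 4.19e-08 to 0.156 over 16 alternatives, of which 6 passed). Leaving out control 3 or APPswe 1, 2 or 3 lost the call, at edgeR Benjamini-Hochberg adjusted p-values of 0.0759, 0.149, 0.156 and 0.152.

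Calr (gene 12317) encodes calreticulin, the soluble lectin chaperone that binds calcium and newly glycosylated proteins. It was at 1555, 1649 and 1623 CPM in control 1, 2 and 3 and at 1292, 1350 and 1376 CPM in APPswe 1, 2 and 3. The groups did not overlap, and control 2 lay close to control 3. edgeR gave a log2 fold change of -0.26 (edgeR Benjamini-Hochberg adjusted p = 0.0424, standard error 0.07), and -0.24 without control 2. Leaving out any library other than control 2 lost the call, with edgeR Benjamini-Hochberg adjusted p-values between 0.074 and 0.164. It passed in 6 of 16 alternatives.

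Hspa5 (gene 14828) encodes BiP, the central Hsp70 chaperone of the ER and a standard readout of the unfolded protein response. It was at 1066, 1363 and 1006 CPM in control 1, 2 and 3 and at 951, 928 and 951 CPM in APPswe 1, 2 and 3. Control 2 was the highest library by a wide margin, while control 3 lay only slightly above the APPswe libraries. The log2 fold change of -0.28 (standard error 0.12) did not pass (edgeR Benjamini-Hochberg adjusted p = 0.151). Without control 2 it was -0.13 (standard error 0.06), again short of the threshold (edgeR Benjamini-Hochberg adjusted p = 0.0722, within a range of 0.00088 to 0.34 over 16 alternatives, of which 1 passed). Hspa5 thus lay below control in all 3 APPswe libraries, with most of the estimate coming from 1 control.

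The other chaperones did not pass in the edgeR fit with all libraries. Dnajb9, the cochaperone ERdj4 and an established target of spliced XBP1, had a log2 fold change of -0.34, and Dnajc3, the cochaperone p58IPK, of -0.20. Pdia3, the oxidoreductase that works with calreticulin and calnexin, was at -0.24, Canx (calnexin itself, anchored in the membrane) at -0.23 and the stress-induced Creld2 at -0.18. Values near 0 were found for Hsp90b1, which encodes the Hsp90 of the ER (0.02), and for the disulfide isomerase Pdia6 (0.04). A pair of members had positive values with groups that did not overlap. Pdia4, another disulfide isomerase, was at 235, 244 and 219 CPM in control and 289, 264 and 265 CPM in APPswe, a log2 fold change of 0.23. It passed in 6 of 16 alternatives, 4 of them with all libraries (no TMM, the name style as a covariate, and limma with either pseudocount). Manf, a secreted factor released on ER stress, was at 174, 147 and 171 CPM in control and 192, 180 and 180 CPM in APPswe, a log2 fold change of 0.16. Without control 2, Pdia4 rose by 0.27 and Dnajb9 fell by 0.45 on the log2 scale by the edgeR test. Hsp90b1, Pdia6, Manf, Canx, Pdia3, Creld2 and Dnajc3 then did not pass. In that fit the log2 fold change was -0.08 for Canx, 0.095 for Manf, 0.10 for Pdia6 and 0.13 for Hsp90b1. Without control 1, Pdia6 was at 0.006 and Dnajb9 at -0.20 (edgeR Benjamini-Hochberg adjusted p = 0.422 for Dnajb9).

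**Figure D4:**
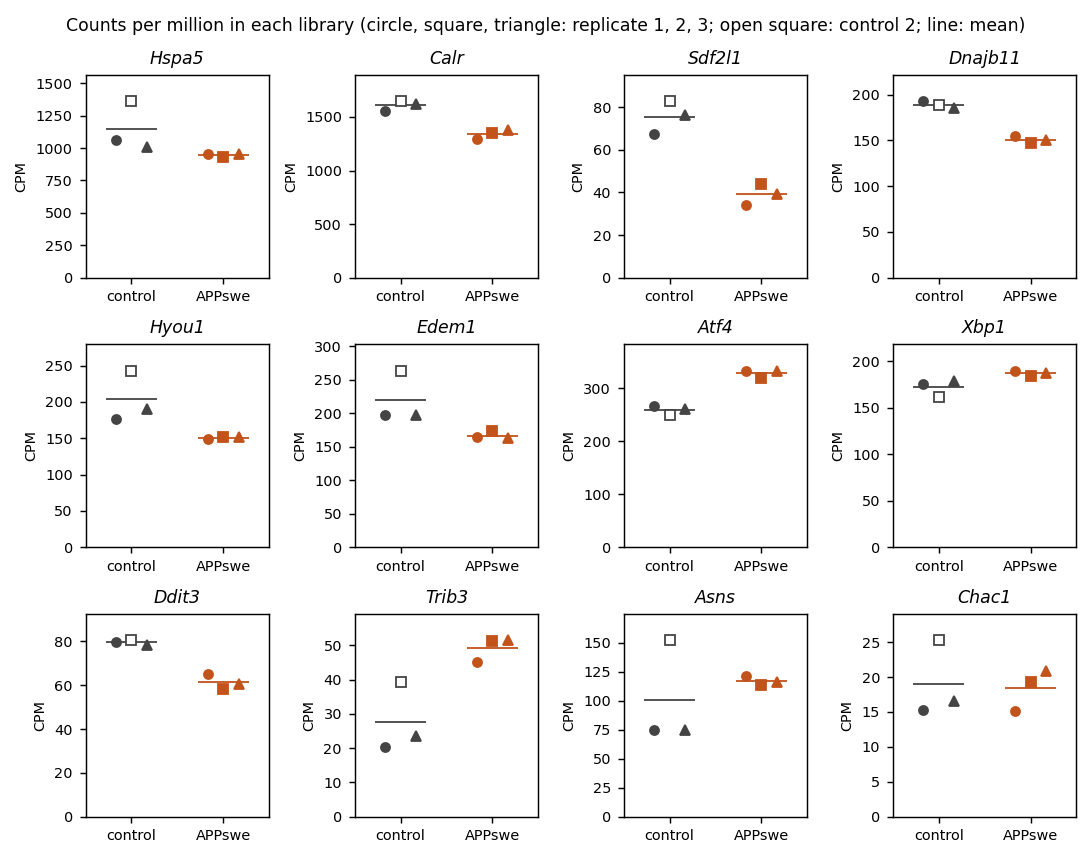
CPM of 12 members in each library, with axes from 0; circle, square and triangle are replicates 1, 2 and 3, the open square is control 2, and the line is the mean of the 3 libraries of a group. Sdf2l1, Dnajb11, Calr and Ddit3 lie lower in APPswe with control 2 close to the other controls, whereas for Hspa5, Hyou1, Edem1, Asns and Chac1 control 2 is set apart.

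No member of the ER degradation class passed by edgeR with all libraries. Of 6 tested members 0 rose and 0 fell by edgeR, with 1 at an unadjusted p under 0.05 (Edem1), while DESeq2 passed Edem1 and limma none. Over all genes tested 10.5% rose and 12% fell, and 5017 of 13484 had an unadjusted p under 0.05. Without control 2, 0 of the class rose and 2 fell (Edem1 and Syvn1), beside 23.3% and 25%. The class median log2 fold change was -0.15, and -0.06 without control 2. By library, the class median deviation was 0.04, 0.06 and 0.04 in control and -0.08, -0.04 and -0.02 in APPswe, so that each control median lay above each APPswe median, at small distances.

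Edem1 (gene 192193), a lectin-like protein that hands misfolded glycoproteins to degradation, had the largest difference of the class. It was at 197, 264 and 198 CPM in control 1, 2 and 3 and at 164, 173 and 163 CPM in APPswe 1, 2 and 3. The groups did not overlap, and control 2 was far above the other controls. On the log2 scale the difference of APPswe from control was -0.40 (edgeR Benjamini-Hochberg adjusted p = 0.0665, standard error 0.13). Without control 2 the fall was smaller, -0.24 (standard error 0.06), but passed (edgeR Benjamini-Hochberg adjusted p = 0.00746, within a range of 1.38e-06 to 0.201 over 16 alternatives, of which 3 passed).

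Derl1 (gene 67819), a membrane protein of the channel that returns substrates to the cytosol, was the most abundant of the class by FPKM, at a mean of 61.4. It was at 181, 192 and 181 CPM in control 1, 2 and 3 and at 161, 172 and 177 CPM in APPswe 1, 2 and 3. APPswe 3 nearly reached the controls. APPswe differed from control by a log2 fold change of -0.12 (edgeR Benjamini-Hochberg adjusted p = 0.278, standard error 0.07), and -0.09 without control 2. Its relatives differed in level, Derl2 being at a mean of 21.6 FPKM and Derl3 at 0.263 FPKM, close to the floor in all 6 libraries.

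Other members of the class belong to the complex around the ubiquitin ligase HRD1. Syvn1, which encodes HRD1, had a log2 fold change of -0.18 that did not pass by edgeR with all libraries, and fell by 0.22 on the log2 scale when control 2 was left out. Sel1l, its adaptor, was at 166, 225 and 174 CPM in control and 173, 167 and 159 CPM in APPswe, and its log2 fold change moved from -0.18 to -0.03 without control 2. Herpud1, a scaffold of the complex and a target of both response arms, was at 80.4, 83.7 and 91.9 CPM in control and 86.7, 89.1 and 87.5 CPM in APPswe. The groups overlapped for Sel1l and for Herpud1, which had a log2 fold change of 0.04.

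Among the sensors and transcription factors, Atf4 was the 1 gene that rose and 0 fell, of 7 tested, beside 10.5% higher and 12% lower over all genes tested. The class median log2 fold change was -0.11, and 0.04 without control 2. Atf4 (gene 11911), the transcription factor at the centre of the integrated stress response, was also the most abundant of the class, at a mean of 212 FPKM. It was at 267, 249 and 260 CPM in control 1, 2 and 3 and at 333, 319 and 333 CPM in APPswe 1, 2 and 3. All 3 APPswe libraries lay above all controls, and control 2 was the lowest of the 6. In log2 terms the fold change was 0.34 (edgeR Benjamini-Hochberg adjusted p = 0.0165, standard error 0.07), a level 1.27 times that of control, and 0.32 without control 2. It passed in 12 of 16 alternatives, and leaving out control 3, APPswe 1, APPswe 2 or APPswe 3 lost the call at edgeR Benjamini-Hochberg adjusted p-values of 0.0547, 0.0602, 0.0723 and 0.0893.

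Xbp1 (gene 22433), whose message IRE1 splices, did not pass. It was at 176, 161 and 179 CPM in control 1, 2 and 3 and at 190, 184 and 187 CPM in APPswe 1, 2 and 3. The APPswe libraries lay just above the controls, of which control 2 was lowest. edgeR gave a log2 fold change of 0.12 (edgeR Benjamini-Hochberg adjusted p = 0.271, standard error 0.07), and 0.08 without control 2.

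The sensors themselves were among the least abundant members. Ern1 lay between 2.45 and 4.44 FPKM over the 6 libraries, with its highest value in control 2, and its log2 fold change moved from -0.24 to 0.04 without that library. Atf6 had a log2 fold change of -0.17 that became -0.01 without control 2. Eif2ak3 was at 44.5, 44.9 and 45.1 CPM in control and 41.6, 39.7 and 37.3 CPM in APPswe, a log2 fold change of -0.18 that did not pass in either comparison although the groups did not overlap. Eif2s1, the substrate of PERK, was at -0.11 and moved to 0.03. Creb3l1, which encodes OASIS, an ER-anchored factor of osteoblasts that supports collagen production, was at 78, 50.5 and 79.9 CPM in control and 79.4, 81.4 and 84 CPM in APPswe. Control 2 was far below the other libraries, and the log2 fold change of Creb3l1 moved from 0.23 to 0.05 without it.

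Of the 9 ATF4 targets 1 fell (Ddit3), 0 rose and 8 did not pass, beside 12% lower and 10.5% higher over all genes tested. Without control 2, 3 rose and 3 fell, beside 23.3% and 25%. The log2 fold changes were positive for 5 and negative for 4, from -0.49 for Sesn2 to 0.83 for Trib3. The class median was 0.05, and 0.11 without control 2, but it turned to -0.03 without control 1, to -0.05 without control 3 and to -0.02 with the name style as a covariate. By library, the class median deviation was -0.09, 0.21 and -0.06 in control 1, 2 and 3 and -0.10, 0.06 and 0.10 in APPswe 1, 2 and 3. Control 2 was thus the highest library of this class, and APPswe 1 lay with control 1.

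Ddit3 (gene 13198) encodes CHOP, a transcription factor that ATF4 induces and that promotes cell death under lasting stress. It was at 79.7, 80.6 and 78.5 CPM in control 1, 2 and 3 and at 65.1, 58.4 and 60.7 CPM in APPswe 1, 2 and 3. The controls were nearly equal, control 2 included, and every APPswe library was lower. On the log2 scale the difference of APPswe from control was -0.38 (edgeR Benjamini-Hochberg adjusted p = 0.0134, standard error 0.07), a level 0.771 times that of control, and -0.36 without control 2. It passed in 14 of 16 alternatives, and the call was lost without APPswe 2 or APPswe 3, at edgeR Benjamini-Hochberg adjusted p-values of 0.0866 and 0.0802. Ddit3 and Atf4 therefore moved in opposite directions in the same libraries.

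Trib3 (gene 228775), a pseudokinase induced by ATF4 and CHOP that restrains them in turn, had the largest positive difference. It was at 20.2, 39.3 and 23.5 CPM in control 1, 2 and 3 and at 45.1, 51.4 and 51.5 CPM in APPswe 1, 2 and 3. All APPswe libraries were above all controls, and control 2 lay between the other controls and the APPswe libraries. APPswe differed from control by a log2 fold change of 0.83 (edgeR Benjamini-Hochberg adjusted p = 0.0504, standard error 0.24), just short of the threshold. Without control 2 it was 1.18 (edgeR Benjamini-Hochberg adjusted p = 4.13e-06, standard error 0.10), a level 2.26 times that of control 1 and 3. Over 16 alternatives, of which 8 passed, the Benjamini-Hochberg adjusted p of edgeR, DESeq2 and limma ran from 5.9e-16 to 0.154.

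Asns (gene 27053), the asparagine synthetase through which ATF4 raises amino acid supply, depended most on control 2. It was at 74.8, 152 and 74.7 CPM in control 1, 2 and 3 and at 121, 113 and 116 CPM in APPswe 1, 2 and 3. Control 1 and 3 were nearly equal and lowest, and control 2 was the highest of the 6. In log2 terms the fold change was 0.22 (edgeR Benjamini-Hochberg adjusted p = 0.609, standard error 0.28). Without control 2 it was 0.65 (edgeR Benjamini-Hochberg adjusted p = 1.79e-05, standard error 0.07), within a range of 5.7e-14 to 0.934 over 16 alternatives, of which 2 passed. Its promoter, shown above, carries CARE close to the start.

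Atf5 (gene 107503), a stress-induced relative of ATF4, was the most abundant of the class by FPKM, at a mean of 151. It was at 208, 199 and 242 CPM in control 1, 2 and 3 and at 191, 245 and 255 CPM in APPswe 1, 2 and 3. The groups overlapped, and APPswe 1 was the lowest library. edgeR gave a log2 fold change of 0.09 (edgeR Benjamini-Hochberg adjusted p = 0.668, standard error 0.13), and 0.04 without control 2. The value ran from 0.011 to 0.21 with a library left out.

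Of the other targets, Sesn2, which encodes a leucine sensor that restrains mTORC1, was at 36.5, 54.2 and 42.7 CPM in control and 29.1, 32.3 and 33.5 CPM in APPswe. Ppp1r15a, the GADD34 subunit that reverses eIF2alpha phosphorylation, was at 57.6, 40.5 and 60.5 CPM in control and 43.9, 46 and 48.2 CPM in APPswe. Neither passed by edgeR with all libraries, though Sesn2 passed by DESeq2 (adjusted p = 0.0315, within a range of 7.72e-06 to 0.193 over 16 alternatives, of which 4 passed). Without control 2 both fell, by 0.32 and by 0.36 on the log2 scale, and without control 1 Sesn2 fell by 0.62. The log2 fold change of Ppp1r15a was -0.20 with all libraries and ran from -0.36 to -0.097 with a library left out. Its edgeR Benjamini-Hochberg adjusted p was highest without control 3, at 0.714. For Sesn2 control 2 was the highest library and for Ppp1r15a the lowest, so that it widened the control spread from opposite ends. Xpot, the exportin of tRNA, had a log2 fold change of 0.05 and rose by 0.24 without control 2. Chac1, an enzyme that degrades glutathione, was at 15.3, 25.3 and 16.5 CPM in control and 15.1, 19.2 and 20.9 CPM in APPswe, and its log2 fold change moved from -0.05 to 0.21 without passing. Atf3, a transcription factor induced by many stresses, was at 0.18 and did not pass, with APPswe libraries above all controls. Without control 2, its lowest library, Atf3 was at 0.11 and again did not pass.

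The library names come in 2 styles that the labels do not explain. Control 1, control 2 and APPswe 1 have a hyphen in the name (hyphen libraries), and control 3, APPswe 2 and APPswe 3 a low line in its place (low-line libraries). Control 2 is also the only library with an S in its name where the other 5 have an L, a difference the labels do not explain either. The 6 members that passed kept their direction within each style. This was fixed in advance, because for each of them the groups did not overlap, so it is no test of the name style. APPswe 1 is also the only hyphen APPswe library, and control 3 the only low-line control. For Sdf2l1 the log2 difference of APPswe from control was -1.13 among hyphen and -0.88 among low-line libraries, and for Atf4 it was 0.37 and 0.33. For Dnajb11 it was -0.30 and -0.31, for Hyou1 -0.48 and -0.33, for Calr -0.31 and -0.25, and for Ddit3 -0.30 and -0.40. Trib3 showed 0.68 among hyphen libraries, where control 2 is 1 of 2 controls, and 1.13 among low-line libraries. With the style as a covariate in edgeR, Hyou1 lost its call (Benjamini-Hochberg adjusted p = 0.099), and Pdia4 and Syvn1 gained one.

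Wider lists of the same pathways placed the members among related genes. Their counts stand beside 10.5% higher and 12% lower over all genes tested, and 23.3% higher and 25% lower without control 2. Of 44 other genes of ER folding and entry into the secretory pathway, 6 rose and 4 fell, with a median log2 fold change of 0.08. Serpinh1, the collagen chaperone HSP47, was at 939, 1103 and 1081 CPM in control and 1530, 1805 and 1845 CPM in APPswe, a log2 fold change of 0.73 (edgeR Benjamini-Hochberg adjusted p = 0.00583, standard error 0.11). Uggt1, the sensor that returns misfolded glycoproteins to calnexin, was at 158, 237 and 158 CPM in control and 128, 120 and 121 CPM in APPswe. Uggt1 fell by 0.58 on the log2 scale with all libraries and by 0.35 without control 2, which was its highest library. Ssr2, a subunit of the translocon-associated complex, rose by 0.43, and Txndc11, a thioredoxin domain protein, fell by 0.44. The disulfide isomerases Pdia5 (0.33) and Txndc5 (0.28) also rose. Without control 2, 10 genes of the list rose and 10 fell, and the median log2 fold change was 0.046.

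Of 27 other ER degradation genes, 4 fell and 0 rose by edgeR, with a median log2 fold change of -0.07 and 10 genes at an unadjusted p under 0.05. The 4 were Ubqln2, a shuttle factor to the proteasome (-0.47), Man1b1, the mannosidase that marks glycoproteins for disposal (-0.41), Dnajb12, a membrane cochaperone (-0.36), and Herpud2, a relative of Herpud1 (-0.29). For each of the 4, all APPswe libraries lay below all controls, and all 4 also fell without control 2. Without control 2 the list held 11 falls and 2 rises, with a median log2 fold change of -0.11.

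Of 36 other ATF4 targets and amino acid genes, 7 rose and 2 fell, with a median log2 fold change of 0.15, and without control 2 the counts were 21 and 4, with a median of 0.41. Control 2 was the highest library for 17 of the 36. Pycr1, an enzyme of proline synthesis, was at 12.2, 15.8 and 14.2 CPM in control and 34.3, 33.7 and 35 CPM in APPswe, a log2 fold change of 1.29 (edgeR Benjamini-Hochberg adjusted p = 0.00114, standard error 0.12). Vegfa, the angiogenic growth factor, was at 95.8, 79.3 and 93.3 CPM in control and 226, 230 and 228 CPM in APPswe, a log2 fold change of 1.35 (edgeR Benjamini-Hochberg adjusted p = 0.000524, standard error 0.09). Ddit4, an inhibitor of mTORC1, rose by 0.76. Fgf21, a stress-induced hormone, had 1, 4 and 3 counts in control 1, 2 and 3 and 26, 30 and 36 counts in APPswe 1, 2 and 3. The controls were at or near the floor, so no fold is given for Fgf21. Pycr1, Vegfa and Ddit4 have other known regulators, and those were not analysed here.

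Control 2 was the highest library for 19 of 21 tRNA synthetases (90.5%), genes that ATF4 also drives. With all libraries 1 of the 21 fell (Rars, by 0.41 on the log2 scale) and 0 rose by edgeR, with 2 at an unadjusted p under 0.05. Without control 2, 8 rose and 2 fell, and the median log2 fold change moved from -0.07 to 0.07. Among 30 other stress sensors, eIF2B subunits and related factors, 2 rose and 6 fell, with a median of -0.09. Without control 2 the counts were 6 and 9, with a median of -0.06. Eif2ak2, the double-stranded RNA kinase PKR that also phosphorylates eIF2alpha, was at 95.1, 193 and 93.6 CPM in control and 61.2, 57.3 and 58.5 CPM in APPswe, a log2 fold change of -1.11 with control 2 and -0.67 without it. Among the death effectors of that list, Bok (1.24) and Bcl2l11, which encodes BIM (0.62), rose. Pmaip1, which encodes NOXA (-0.89), and Tnfrsf10b, the death receptor DR5 (-0.41), fell, and Bbc3 (-0.16) and Casp12 (-0.27) did not pass with all libraries. Without control 2 Casp12 passed at a log2 fold change of -0.41 (edgeR Benjamini-Hochberg adjusted p = 0.0245), and Bbc3 did not pass.

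**Figure D5:**
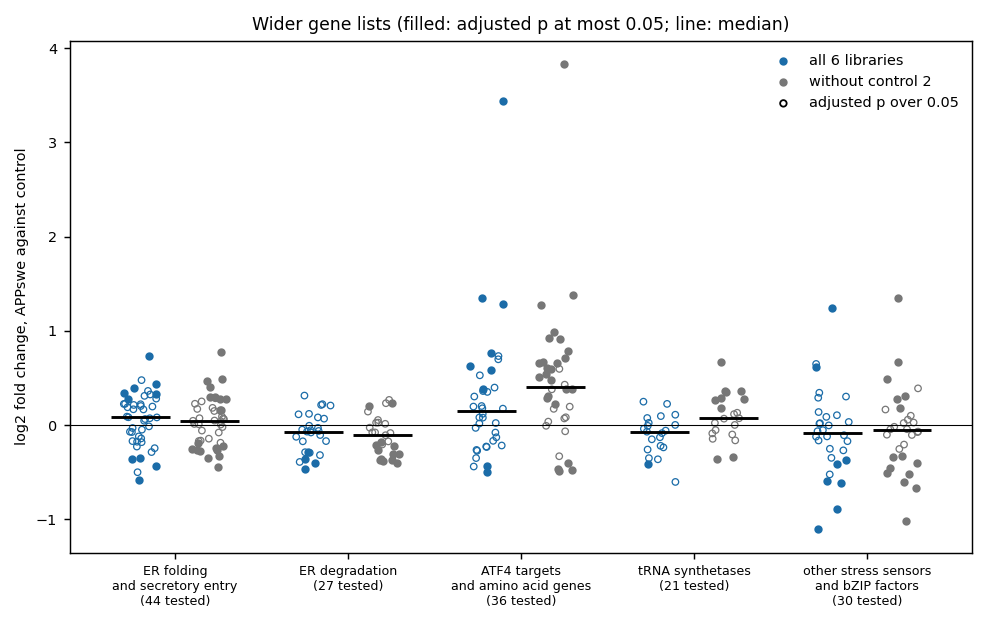
Log2 fold change of APPswe against control for each tested gene of the 5 wider lists, with all 6 libraries (blue) and without control 2 (grey); filled points have an adjusted p of at most 0.05, lines are medians, and the sideways spread is only for display. The median of the ATF4 and amino acid list moves from 0.15 to 0.41 and that of the tRNA synthetases from -0.07 to 0.07 once control 2 is left out.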

How the data were processed

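The deposited count per gene and library was taken as given, and FPKM values are those the authors deposited. Blank FPKM cells, for 397 genes in the hyphen-named and 716 genes in the low-line-named libraries, were read as 0. The submitters' processing notes give the build as GRCm38, and the aligner and counter are not given in the sources used here. The deposited tables also hold the authors' log2 fold change and p-value columns of their own comparison, which were not used. Counts were fitted over the whole table in R 4.3.3 with edgeR 4.0.16, after filterByExpr and scaling by trimmed means (TMM), by the quasi-likelihood test of APPswe against control, with the Benjamini-Hochberg adjustment made over every gene of that fit. CPM use the TMM-scaled totals. A prior count of 2 was used on the log2 CPM scale only, that is for deviations, differences between libraries and differences within a name style. The edgeR log2 fold changes use the default prior of that fit. Their standard error is the absolute log2 fold change divided by the square root of F. DESeq2 1.42.0 and limma 3.58.1, the latter on log2 FPKM, served as alternatives beside other scaling, filters, leaving out each library, the replicate block and the library-name style. One alternative, without control 2 and with the name style as covariate, was chosen after seeing the data, as was the use of the fit without control 2 beside each result. Named genes were all members that passed, the most abundant by FPKM in each class, and Hspa5, Xbp1, Atf4 and Ddit3, with Edem1, Trib3 and Asns added after seeing the data, and from each wider list the 4 with the largest absolute log2 fold change that passed, with Pdia5, Txndc5 and the other death effectors of the last list beside them. The members and lists were chosen with earlier results of these data known. A gene of a wider list is not reported here and was left out of the counts of that list. Promoter windows are from RefSeq. The code was tested on simulated data.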

Additional observations from a re-analysis of the deposited data

How the results depend on the processing

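The samples carry replicate numbers, and correlations of matched numbers were 0.0736, -0.0364 and 0.158. Control 1 and 3 went best with the APPswe library of the same number, whereas control 2 went best with APPswe 1 (0.0819). All these values are small, so they cannot settle whether the numbers pair the samples. Control and APPswe libraries of the same name style had positive correlations, from 0.0736 to 0.158. Those of different styles had negative ones, from -0.22 to -0.0364. The reason for this pattern was not tested. With the replicate block, 2 members were higher and 3 lower at adjusted p alone, and 2021 genes passed in all, against 3036 without it. Members higher at adjusted p alone numbered 3 without TMM, 2 by DESeq2, 2 with at least 10 counts in every library, 2 with the name style, 3 and 3 by limma, 0 to 5 with a library left out and 9 with control 2 left out and the name style as covariate, an alternative chosen after seeing the data. Members lower numbered 3 without TMM, 3 with no filter, 3 and 3 by limma, 1 to 10 with a library left out and 16 in the added alternative. In that alternative 8958 of all 13753 genes tested passed in either direction. All genes passing were 3126 of 13484 without TMM, 2778 of 17368 with no filter and 2743 of 13484 with the name style. They were 2823 of 12628 with at least 10 counts in every library, 3507 of 17368 by DESeq2, and 2859 and 2826 of 12819 by limma. With the fold limit, 1 member was called higher without control 2 and 1 in the added alternative, 1 was called lower with the name style, and with a library left out 0 to 1 were called in either direction. The chaperone median was -0.16 by both limma fits and -0.16 in the added alternative, and -0.28 to -0.18 with a library left out. The ER degradation median was -0.080 without TMM, -0.066 and -0.068 by limma, -0.064 in the added alternative and -0.17 to -0.059 with a library left out. Signs turned with a library left out for Hsp90b1 (-0.061 to 0.13), Herpud1 (-0.0048 to 0.091), Chac1 (-0.19 to 0.21), Xpot (-0.046 to 0.24), Ern1 (-0.42 to 0.041) and Eif2s1 (-0.21 to 0.030). Chac1 was 0.021 without TMM, 0.047 and 0.051 by limma and 0.17 in the added alternative, Atf5 was -0.023 with the name style and -0.020 in the added alternative, and Eif2s1 was 0.060 in the added alternative. With a library left out, genes passing in all ran from 1024 of 13742 without APPswe 3 to 6637 of 13753 without control 2. The cause was not tested.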
